A study of Mus musculus with 11 samples.

Results

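Antigen presentation genes were followed here across mouse stomachs given tamoxifen, rapamycin or both, and across 2 fractions of separated stomach cells. The set held 10 genes: Cd74, H2-Aa, H2-Ab1, H2-Eb1, Ciita and H2-DMa of the MHC class II pathway, and B2m, Tap1, Psmb8 and Psmb9 of the class I pathway. A gene was measured where a probe set carried its symbol alone in the platform's table, and the probe set with the highest mean over the 9 whole-stomach arrays stood for it. By this rule 9 of the 10 were measured, each by 1 probe set, among 22180 genes in all. Cd74, the invariant chain gene, has no value here, because its probe set is also annotated with a microRNA gene. That left 5 class II and 4 class I genes.

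All mice were adult C57Bl/6. Whole stomach came from mice injected with sunflower oil (vehicle, 2 arrays), with tamoxifen at 5 mg per 20 g of body weight for 3 days (2 arrays), with rapamycin at 0.6 mg per 20 g for 10 days (3 arrays), or with both drugs at those doses (2 arrays). Injections were daily and into the peritoneum. Tamoxifen binds oestrogen receptors and, at high dose, injures the acid-secreting parietal cells of the stomach, while rapamycin inhibits the growth kinase complex mTORC1. There was also 1 array of isolated parietal cells and 1 of the cells that remained without them. Replicates within a group are biological by their labels, but how many mice stand behind an array is not stated there.

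MHC class II molecules are made mainly by dendritic cells, macrophages and B cells, and show peptides of engulfed proteins to helper T cells. H2-Aa and H2-Ab1 encode the chains of I-A, H2-Eb1 the beta chain of I-E, H2-DMa a chain of the peptide editor DM, and Ciita the transactivator that switches these genes on. Class I molecules are made by nearly all nucleated cells and show peptides of the cell's own proteins to cytotoxic T cells. B2m encodes their shared light chain, Tap1 a subunit of the peptide pump of the endoplasmic reticulum, and Psmb8 and Psmb9 are catalytic subunits of the immunoproteasome. Interferons raise class I genes, and interferon gamma also raises Ciita.

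Values are log2 expression, so a difference of 1 is a doubling, and errors after ± are standard errors of the log2 change unless SD is named. A gene was called where limma's adjusted p was under 0.05 over all 22180 genes. Array medians lay between 4.95 and 5.09 for whole stomach and at 3.67 and 3.68 for the fractions, which were therefore compared only with each other. Genes of the squamous forestomach varied within groups and between them: the mean over 10 genes was 5.12 and 4.8 with vehicle, 9.92 and 5.04 with tamoxifen, 10.00, 8.72 and 5.41 with rapamycin, and 9.30 and 9.49 with both drugs. The isolated parietal cells carried more of all 8 parietal markers than the remaining cells did (median difference 3.55). In whole tissue, fewer cells of a type and less RNA per cell cannot be told apart.

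Of the class I genes 3 of 4 rose in the stomachs that received tamoxifen, and 0 of 5 class II genes were called. Averaged over the arms without and with rapamycin, B2m rose 1.56-fold, Tap1 1.90-fold and Psmb8 1.51-fold. So 3 of 9 members were called, all higher and all of class I, where 3.24% of all genes were called higher and 5.85% in either direction. At an unadjusted p under 0.05 limma gave 4 members, all of class I, and 17.6% of all genes. The median change was 0.61 over the 4 class I genes and -0.10 over the 5 class II genes, against -0.02 over all genes. The class II median changed sign with left-out arrays, from -0.23 without tamoxifen array 2 to 0.077 without tamoxifen array 1.

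B2m stood at 12.35 and 11.69 in the vehicle arrays, 12.47 and 12.95 with tamoxifen, 12.09, 12.21 and 12.09 with rapamycin, and 12.68 and 12.75 with both drugs. The 4 arrays with tamoxifen were all above the 5 without it. Its change was 0.64 ± 0.16 (adjusted p = 0.0494). The spread was widest in the vehicle pair (SD 0.47, n = 2).

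Tap1 stood at 7.58 and 7.56 with vehicle, 7.97 and 8.30 with tamoxifen, 7.23, 7.33 and 7.06 with rapamycin, and 7.87 and 9.12 with both drugs. Again the groups with and without tamoxifen did not overlap, and the 2 combined arrays were far apart (SD 0.88, n = 2). The change was 0.93 ± 0.23 (adjusted p = 0.0489), and 0.62 without combined array 2.

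Psmb8 stood at 6.71 and 6.51 with vehicle, 6.89 and 7.28 with tamoxifen, 6.53, 6.60 and 6.69 with rapamycin, and 7.03 and 7.60 with both. The lowest tamoxifen array lay above the highest array without the drug. Its change was 0.59 ± 0.14 (adjusted p = 0.0484).

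Psmb9 behaved less evenly, at 6.05 and 6.39 with vehicle, 6.18 and 6.59 with tamoxifen, 5.83, 5.68 and 5.72 with rapamycin, and 6.25 and 7.06 with both. The first tamoxifen array and the first combined array lay below vehicle array 2, so the groups overlapped. The change of 0.54 ± 0.18 did not pass (adjusted p = 0.135). Groups with and without tamoxifen thus did not overlap for 3 of 9 members, all higher with the drug, which held for 4.99% of all genes in that direction and 9.31% in either.

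These 3 calls lay close to the threshold. With 1 array left out in turn, B2m was called in 2 of 9 cases, Tap1 in 1 and Psmb8 in 2, and no member was called without vehicle array 2, without tamoxifen array 2, without any 1 of the 3 rapamycin arrays, or without combined array 2. The number called was 1 without vehicle array 1, 2 without tamoxifen array 1 and 3 without combined array 1, the last being Tap1, Psmb8 and Psmb9. Median centring left 0 called, and quantile normalization or the mean of probe sets 1. With the squamous mean as a covariate 0 were called, with changes of 0.72 for B2m, 0.94 for Tap1 and 0.69 for Psmb8. The class I median stayed above 0 with each array left out, from 0.50 to 0.74. Parietal markers moved the other way, 7 of 8 falling (median -0.85), with a list mean of 8.70 to 9.04 in the arrays with tamoxifen and 9.99 to 10.47 in those without, and their part in the class I values was not tested.

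**Figure D1:**
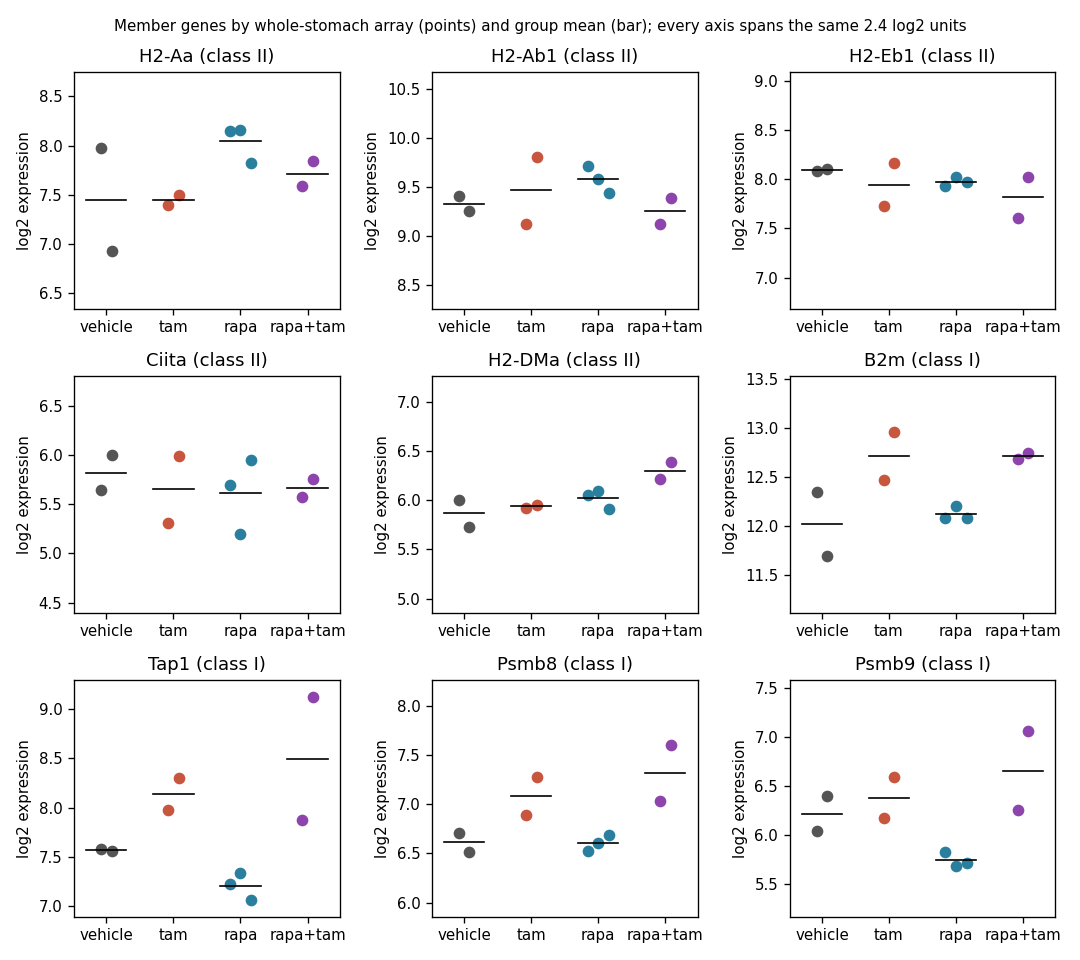
Log2 expression (vertical axes, each spanning an equal range) of the 9 measured genes in the 9 whole-stomach arrays, by group: vehicle, tamoxifen (tam), rapamycin (rapa) and both (rapa+tam); points are arrays and bars group means. In the B2m, Tap1 and Psmb8 panels every array with tamoxifen lies above every array without it, and in the class II panels arrays with and without tamoxifen overlap.

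The promoters of Tap1 and B2m are shown because both genes were called higher and the start of Tap1 lies beside that of Psmb9. Sequences are from RefSeq on build GRCm38.p6, 5′ to 3′ on the gene's strand, 250 bases before to 50 after the start. RefSeq promoters were at hand for 7 of the 10 members, and those of H2-Ab1, Ciita and Cd74 were not searched. That of Tap1 is chr17:34187306-34187605 on the plus strand, and that of Psmb9, on the minus strand, overlaps it by 275 bases. That of B2m is chr2:122147437-122147736 on the plus strand. Capitals mark every match, on either strand, to the motifs spelled out after the sequences.
Tap1: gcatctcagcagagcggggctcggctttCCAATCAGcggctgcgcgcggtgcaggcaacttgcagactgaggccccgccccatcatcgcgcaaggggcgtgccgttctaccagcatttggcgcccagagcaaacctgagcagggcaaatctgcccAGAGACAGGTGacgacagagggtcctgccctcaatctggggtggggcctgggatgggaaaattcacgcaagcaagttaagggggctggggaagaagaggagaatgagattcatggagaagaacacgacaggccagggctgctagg
B2m: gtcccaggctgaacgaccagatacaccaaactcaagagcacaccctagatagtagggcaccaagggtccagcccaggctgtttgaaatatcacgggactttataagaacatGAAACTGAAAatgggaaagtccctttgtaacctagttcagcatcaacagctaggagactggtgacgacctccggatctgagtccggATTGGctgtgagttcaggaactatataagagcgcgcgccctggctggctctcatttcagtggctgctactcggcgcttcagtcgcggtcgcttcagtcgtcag
The Y box, CCAAT, was in 37.4% of the 32851 promoters and in both of these, as part of the longer form CTGATTGG on the opposite strand in Tap1. The interferon-stimulated element was searched as GAAA, any 2 bases and GAAA again, found in 3.44% of promoters, and B2m held it as GAAACTGAAA, 139 bases before the start. The STAT element TTCNNNGAA, in 8.3% of promoters, occurred in that of Psmb8 as TTCCCAGAA and in no other promoter among the members searched. Tap1 also held AGAGACAGGTG, a match to the looser X box described with the class II genes. A match describes the letters only.

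Within each arm no member was called. Tamoxifen against vehicle asks what the drug did alone, and the combination against rapamycin asks what it did in stomachs already under rapamycin. B2m changed by 0.69 ± 0.23 alone (adjusted p = 0.258) and by 0.59 ± 0.21 under rapamycin (adjusted p = 0.245). Tap1 changed by 0.57 ± 0.34 alone (adjusted p = 0.677) and by 1.29 ± 0.31 under rapamycin (adjusted p = 0.0741). Left-out arrays moved these values: B2m alone was 0.36 without vehicle array 2 and 1.02 without vehicle array 1.

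Psmb8 stood at 0.47 ± 0.21 alone (adjusted p = 0.477) and 0.71 ± 0.19 under rapamycin (adjusted p = 0.115). It was 0.27 alone without tamoxifen array 2 and 0.43 under rapamycin without combined array 2. Psmb9, the immunoproteasome subunit paired with Tap1 at the promoter, stood at 0.16 ± 0.26 and 0.91 ± 0.24 (adjusted p = 0.957 and 0.104). It was -0.045 alone without tamoxifen array 2, 0.37 without tamoxifen array 1, and 0.51 under rapamycin without combined array 2. No member was called with tamoxifen alone, where 1.72% of all genes were called, nor under rapamycin, where 2.45% were. At an unadjusted p under 0.05 limma gave 1 of the 9 members alone and 4 under rapamycin, against 10.9% and 13.9% of all genes. Groups did not overlap for 3 of the 4 class I genes alone and for 4 of 4 under rapamycin, all higher with tamoxifen, against 13.4% and 18.7% of all genes higher. Of the class II genes 0 were apart alone, and under rapamycin H2-DMa was higher and H2-Ab1 lower, against 20.4% of all genes lower. The arms differed for Tap1 by 0.72 ± 0.45 and for Psmb9 by 0.75 ± 0.36, and the interaction test called neither, nor any other gene (0.00% of the table). For the interaction, limma gave an unadjusted p below 0.05 for 627 genes (2.83%) and for 0 members. On simulated data the interaction test recovered 12% of changes of 1 log2 unit and 78% of changes of 2. The lack of calls therefore cannot show that the arms were alike. Tap1's change under rapamycin was 1.91 without combined array 1, where it was called (adjusted p = 0.0241), and 0.66 without combined array 2.

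**Figure D2:**
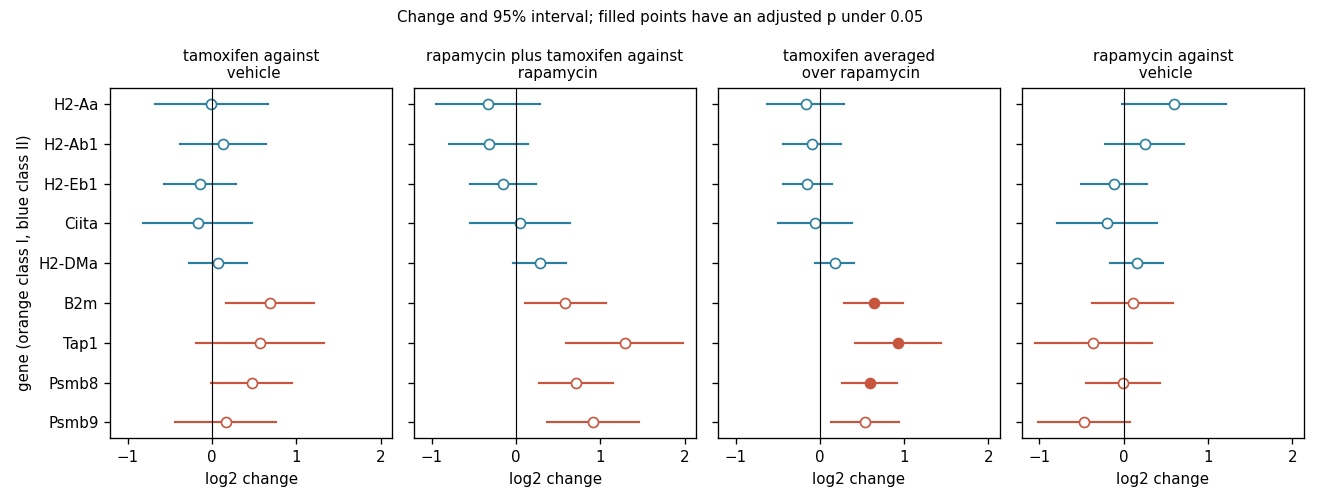
Log2 change (horizontal axes) with its 95% interval for each gene in 4 comparisons, class I in orange and class II in blue; filled points have an adjusted p under 0.05. The filled points are B2m, Tap1 and Psmb8 with tamoxifen averaged over rapamycin, and class II intervals include 0 in all 4 panels.

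Class II genes lay close to their levels without tamoxifen, 4 of 5 slightly below 0 and 1 above, and none was called. H2-Aa, the I-A alpha chain, stood at 7.97 and 6.93 with vehicle, 7.39 and 7.49 with tamoxifen, 8.15, 8.16 and 7.83 with rapamycin, and 7.59 and 7.84 with both drugs. The vehicle arrays were the furthest apart (SD 0.74, n = 2) and enclosed both tamoxifen arrays. Its change with tamoxifen averaged over rapamycin was -0.17 ± 0.20 (95% interval -0.62 to 0.29).

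H2-Ab1, its beta chain partner, stood at 9.41 and 9.25 with vehicle, 9.12 and 9.81 with tamoxifen, 9.71, 9.58 and 9.44 with rapamycin, and 9.12 and 9.39 with both drugs. The 2 tamoxifen arrays lay on either side of the vehicle pair. The change was -0.10 ± 0.15 (95% interval -0.44 to 0.25).

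H2-Eb1, the I-E beta chain, stood at 8.08 and 8.10 with vehicle, 7.73 and 8.17 with tamoxifen, 7.93, 8.02 and 7.97 with rapamycin, and 7.61 and 8.03 with both. Only 1 array of each tamoxifen group was low. The change was -0.15 ± 0.13 (95% interval -0.44 to 0.14).

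Ciita, the class II transactivator, stood at 5.64 and 6.00 with vehicle, 5.31 and 5.99 with tamoxifen, 5.70, 5.20 and 5.95 with rapamycin, and 5.58 and 5.76 with both. Every group overlapped every other. The change was -0.06 ± 0.19 (95% interval -0.50 to 0.38).

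H2-DMa, the peptide editor, was the 1 class II gene above 0 with tamoxifen averaged over rapamycin. It stood at 6.00 and 5.73 with vehicle, 5.92 and 5.96 with tamoxifen, 6.05, 6.10 and 5.91 with rapamycin, and 6.21 and 6.39 with both drugs. The combined arrays were above the other 7. It was 0.43 ± 0.15 above vehicle in the combined group (adjusted p = 0.248) and 0.18 ± 0.10 up with tamoxifen averaged over rapamycin (95% interval -0.05 to 0.40). No test compared the classes.

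The promoters of H2-Aa and H2-Eb1 are shown because, as class II genes, they hold the same longer Y box as Tap1. H2-Aa is chr17:34287774-34288073 on the minus strand and H2-Eb1 is chr17:34305617-34305916 on the plus strand, with the build, window and capitals as for Tap1.
H2-Aa: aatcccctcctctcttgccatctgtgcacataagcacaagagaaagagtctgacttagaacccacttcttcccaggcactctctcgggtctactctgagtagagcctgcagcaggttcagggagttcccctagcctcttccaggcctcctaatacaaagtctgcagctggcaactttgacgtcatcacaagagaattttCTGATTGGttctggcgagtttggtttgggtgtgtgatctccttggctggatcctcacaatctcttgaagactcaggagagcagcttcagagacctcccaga
H2-Eb1: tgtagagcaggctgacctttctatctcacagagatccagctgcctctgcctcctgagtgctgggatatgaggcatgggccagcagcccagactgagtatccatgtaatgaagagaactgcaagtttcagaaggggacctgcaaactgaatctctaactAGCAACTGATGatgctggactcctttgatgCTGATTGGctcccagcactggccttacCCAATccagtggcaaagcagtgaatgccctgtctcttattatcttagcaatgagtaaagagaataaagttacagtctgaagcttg
The letters CTGATTGG were chosen after the sequences had been read and were in 4.1% of all promoters. Among the members searched they were in those of H2-Aa, H2-Eb1, Tap1 and Psmb9. In Tap1 and Psmb9 this is the same site read from opposite strands, because their windows overlap by 275 bases. The X box was searched as AG, any 2 bases and ACAGATG, in 0.423% of promoters and in none of the members searched. A looser form chosen after reading the sequences allowed any base after AC and again after the G that follows. It was in 4.61% of promoters and in those of H2-Eb1, Tap1 and Psmb9. Tap1 and Psmb9 again share the same site, so they are not separate finds. In H2-Eb1 the X form began 92 and the Y form 62 bases before the start.

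Array by array, the classes moved apart. Each gene was set against its own vehicle mean and then averaged by class. Class I exceeded class II by 0.49 and 0.50 in the tamoxifen arrays and by 0.44 and 0.86 in the combined arrays, against -0.04 and 0.04 in the vehicle arrays. In the rapamycin arrays class I was the lower one, at -0.38, -0.25 and -0.33. The class difference was thus above 0.4 in the 4 arrays with tamoxifen and below 0.1 in the 5 without it.

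Pairs of class I genes were on the whole more alike from array to array than pairs of class II genes, and the ranges met. Over the 9 whole-stomach arrays the 6 pairs of class I genes had Pearson correlations between 0.54 and 0.94, with a median of 0.85. The 10 pairs of class II genes had values between -0.40 and 0.65, with a median of 0.14, and the 20 pairs across classes had values between -0.43 and 0.65, with a median of 0.07. The pairs at the top of each range outside class I were H2-Ab1 with H2-Eb1 (0.65) and H2-DMa with Psmb8 (0.65). These correlations describe 9 arrays of one tissue that include the group differences, and carry no test.

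**Figure D3:**
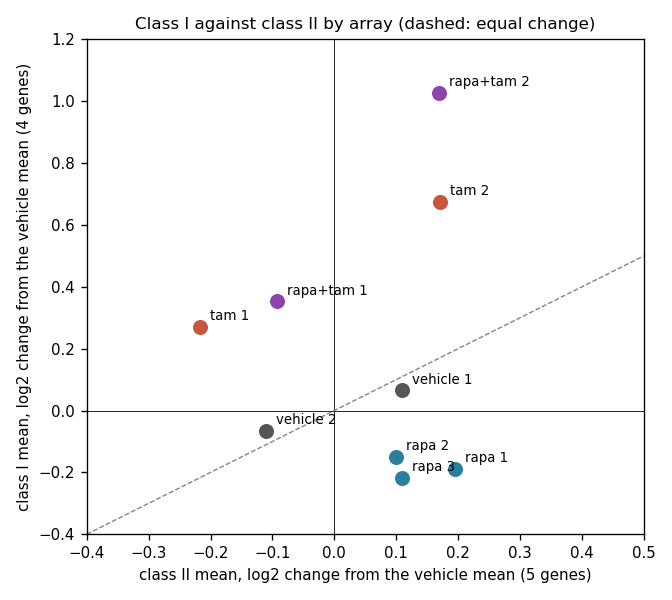
Mean log2 change from the vehicle mean of the 5 class II genes (horizontal) and the 4 class I genes (vertical); each point is 1 whole-stomach array and the dashed line marks equal change. The 4 arrays with tamoxifen lie 0.44 or more above the line, and the 3 rapamycin arrays lie below it.

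Rapamycin against vehicle asks what the mTORC1 inhibitor did alone, and no member was called, where 0.0496% of all genes were. Class I genes had a median of -0.18, with Tap1 at -0.36 ± 0.31 (adjusted p = 0.697) and Psmb9 at -0.48 ± 0.24 (adjusted p = 0.588). Both were lower in all 3 rapamycin arrays than in both vehicle arrays. Class II genes had a median of 0.15, with H2-Aa at 0.59 ± 0.27 (adjusted p = 0.577), and its 95% interval ran from -0.02 to 1.21. H2-Aa stood at 0.070 without vehicle array 2 and 1.11 without vehicle array 1, and the class II median at 0.016 and 0.29. Groups did not overlap for 4 of 9 members, H2-Ab1 higher and H2-Eb1, Tap1 and Psmb9 lower, against 27.0% of all genes. No member reached an unadjusted p under 0.05 in limma, as 8.91% of all genes did. Mast cell genes moved with rapamycin: 3 of 5 fell, among them the protease genes Mcpt1 (-4.46) and Mcpt2 (-3.57), and the list mean was 8.67 and 9.22 in the vehicle arrays and 6.59 to 7.56 in the other 7. Of the 5 genes, Mcpt1 and Kit fell with tamoxifen alone, 3 fell with both drugs against vehicle and 1, Kit, with tamoxifen averaged over rapamycin. Kit did not follow the other 4 genes. It stood at 0.25 with rapamycin against vehicle, where the other 4 were below 0. With both drugs against rapamycin Kit fell (-1.76) and the other 4 were above 0. Kit read 0.37 higher in parietal than in remaining cells, and the other 4 read lower. The part of these 5 genes in the members' values was not tested.

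Both drugs against vehicle gave class I changes of 0.44 to 0.93 (median 0.70) and class II changes of -0.27 to 0.43 (median -0.08), with 0 of 9 called and 1.15% of all genes called. At an unadjusted p under 0.05, B2m, Tap1, Psmb8 and H2-DMa passed in limma, against 13.7% of all genes. The class I median was 0.36 without combined array 2. Squamous genes stood above vehicle here, by a median of 4.18, with 0 of 10 called and 9 at an unadjusted p under 0.05 in limma; with their mean as a covariate the class I median was 0.91. Both drugs against tamoxifen alone asks what rapamycin changed in stomachs given tamoxifen. There class I stood at a median of 0.25 and class II at 0.02, with 0 of 9 members and 0.00% of all genes called by limma. At an unadjusted p under 0.05 there was 1 member, H2-DMa (0.36 ± 0.15), and 5.67% of all genes. These comparisons share arrays with those above, so their values are not separate evidence.

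Other genes of the class I pathway moved in the same direction. Of 19 listed, 16 were measured, and with tamoxifen averaged over rapamycin 4 rose and 0 fell (median 0.32, 14 of 16 above 0). Nlrc5, the class I transactivator, rose by 0.67 ± 0.12 (adjusted p = 0.0124), from 4.95 to 5.00 with vehicle and 4.58 to 4.78 with rapamycin to 5.44 and 5.44 with tamoxifen and 5.32 and 5.82 with both. Every array with tamoxifen was above every array without it. It also rose under rapamycin, by 0.86 ± 0.16 (adjusted p = 0.0287), the 1 gene of this list called there, but the list had 0 called without any 1 of the rapamycin arrays or of the combined arrays.

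H2-K1, a class I heavy chain gene of a family with similar sequences, whose signal could be shared with its relatives, rose by 0.95 ± 0.18 (adjusted p = 0.0164). Psmb10, the remaining catalytic subunit of the immunoproteasome, rose by 0.83 ± 0.16 (adjusted p = 0.0170). Erap1, which trims peptides in the endoplasmic reticulum, rose by 0.39 ± 0.09 (adjusted p = 0.0443). Among those not called were Tap2, the partner of Tap1 in the pump (0.31 ± 0.14), and the chaperone gene Calr (-0.07 ± 0.12), both named after their values were seen. With 1 array left out, the count of 4 ranged from 1 (without combined array 2) to 6 (without tamoxifen array 1), and it was 2 without rapamycin array 2 or combined array 1.

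Proteasome subunits outside the immunoproteasome's own set include Psmb5, Psmb6 and Psmb7, which its catalytic subunits replace, and subunits common to both particles. Of 10 listed genes (labelled constitutive proteasome in the plot of lists) 0 were called by limma, although all 10 stood above 0, with a median of 0.33 and 6 at an unadjusted p under 0.05. The replaced subunits stood at 0.27 (Psmb5), 0.22 (Psmb6) and 0.35 (Psmb7). Of the common ones, Psma1 stood at 0.53 ± 0.14 (adjusted p = 0.0729) and Psmb2 at 0.48 ± 0.15 (adjusted p = 0.103).

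Among other class II pathway genes a protease was called and the rest were not. Of 13 measured, 1 rose and 0 fell with tamoxifen averaged over rapamycin, and the list median was -0.04. Another protease gene of the list, Lgmn, was at 0.41 ± 0.11 and was not called (adjusted p = 0.0666); it is named after its values were seen. The gene that rose was Ctss, cathepsin S, which cuts the invariant chain. It stood at 7.72 and 8.18 with vehicle, 8.68 and 9.43 with tamoxifen, 7.66, 7.66 and 7.46 with rapamycin, and 8.60 and 9.04 with both. The lowest array with tamoxifen exceeded the highest without it, and the change was 1.17 ± 0.18 (adjusted p = 0.00632). With both drugs against rapamycin it rose by 1.23 ± 0.24 (adjusted p = 0.0372), a call lost without any 1 of the rapamycin or combined arrays.

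Interferon-response genes moved with the class I genes. Of 11 type I response genes, 9 rose and 0 fell with tamoxifen averaged over rapamycin (median 1.05), among them the antiviral genes Ifit1 (2.53 ± 0.39), Oasl2 (2.4 ± 0.19) and Oas2 (2.28 ± 0.24) and the regulator Irf7 (2.25 ± 0.22). The count was 5 without combined array 2 and 6 without rapamycin array 2. The mean of the list was 6.14 and 5.94 in the vehicle arrays, 6.83 and 7.62 with tamoxifen, 5.64, 5.41 and 5.44 with rapamycin, and 7.13 and 7.54 with both. Like the class I mean, it was highest in the arrays with tamoxifen and lowest with rapamycin alone. By gene, Tap1 and Psmb9 were lowest with rapamycin alone. B2m averaged 12.13 with rapamycin and 12.02 with vehicle, and Psmb8 averaged 6.61 in both groups.

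Of 10 measured interferon gamma signalling genes, 1 rose (Cxcl10, a chemokine gene, 0.72 ± 0.16, adjusted p = 0.0311) and 0 fell, with a list median of 0.22. Cxcl10 was not called without vehicle array 2, tamoxifen array 2, rapamycin arrays 1 or 3, or either combined array, where the count was 0. The part of either response in the class I values was not tested.

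The genes whose profile over the 9 arrays was most like the class I mean were Trim21, an intracellular antibody receptor (Pearson r 0.98), the interferon-inducible GTPase gene Irgm2 (0.98), the interferon signalling factor gene Stat2 (0.97), the lipopolysaccharide receptor gene Cd14 (0.96), the ISG15-activating enzyme gene Uba7 (0.96) and the antiviral gene Rsad2 (0.96). Trim21 ranged over 0.62 log2 units and the rest of these over 1.15 to 2.38. The genes most like the class II mean were 1700086L19Rik (0.90), Zfp804b (0.88), Zbtb39 (0.87), Idnk (0.87), Agtr1a (0.87) and Reg3d (0.86), whose levels ranged over at most 0.69 log2 units. The genes of both lists are the highest of 22180 genes over 9 arrays and are a description, without a test.

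Markers of antigen-presenting cells did not move as 1 group. Of 7 measured dendritic cell genes, the integrin gene Itgax rose with tamoxifen averaged over rapamycin (1.08 ± 0.19, adjusted p = 0.0107), and the list median was -0.07. Of 10 macrophage genes 2 rose, the lysozyme gene Lyz2 (1.08 ± 0.18, adjusted p = 0.00955) and the endosomal gene Cd68 (0.61 ± 0.13, adjusted p = 0.0326), with a median of 0.35. The macrophage mean was 6.75 and 6.77 with vehicle, 7.07 and 7.63 with tamoxifen, 6.70 to 6.89 with rapamycin and 6.87 and 7.03 with both. Thus it stood highest in the 2 tamoxifen arrays.

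Of 5 B cell, 5 T cell and 5 general leukocyte genes, 0 were called by limma, with medians of -0.04, -0.09 and 0.24 and with 1 gene of each list at an unadjusted p under 0.05. With both drugs against vehicle the B cell list had a median of -0.29, with 2 of 5 genes above 0, and the T cell list a median of -0.42, with 1 of 5 above 0. The genes of smallest p were the B cell receptor genes Cd79a, at -0.58 ± 0.20 (adjusted p = 0.244), and Cd79b, at -0.49 ± 0.15 (adjusted p = 0.195). The T cell receptor gene Cd3g stood at -0.55 ± 0.14 (adjusted p = 0.136). Both lists were dim in whole stomach. The B cell mean ran from 4.09 to 4.35 and the T cell mean from 4.35 to 4.78, below the array medians of 4.95 to 5.09. Whether these cells' numbers had a part in the class II or class I values was not tested.

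**Figure D4:**
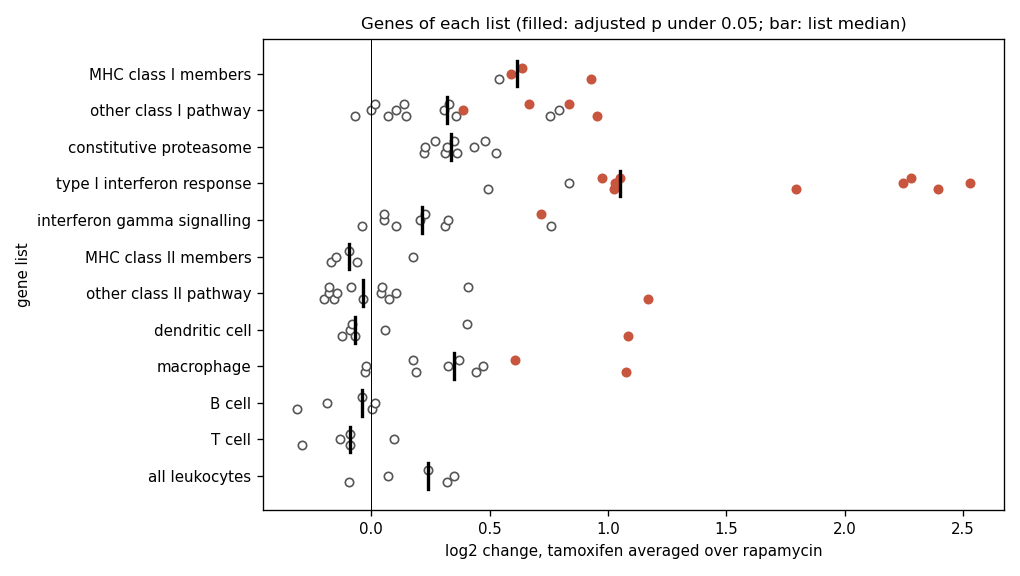
Log2 change with tamoxifen averaged over rapamycin (horizontal) for each measured gene of 12 lists (vertical); filled points have an adjusted p under 0.05 and bars are list medians. Class I members and the type I interferon response lie to the right, with medians of 0.61 and 1.05, and class II members lie around 0, with a median of -0.10.

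The 2 cell fractions ask which stomach cells carry these transcripts. All 5 class II genes read lower in isolated parietal cells than in the remaining cells, and of the 4 class I genes 2 read lower and 2 higher. With 1 array per fraction there is no replicate check and no test. H2-Aa read 3.32 in parietal cells and 5.06 in the remaining cells, a difference of -1.74. H2-Ab1 read 4.74 and 6.14, a difference of -1.40. These 2 of 9 members were at least 1 log2 unit lower, as were 6.46% of all genes.

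H2-DMa differed by -0.80, H2-Eb1 by -0.58 and Ciita by -0.27. The class II median was -0.80, against 0.03 over all genes. In rank, H2-Aa lay above 35% of the genes of the parietal-cell array and above 67.3% of those of the remaining-cell array. H2-Aa and H2-DMa lay below the median of the parietal-cell array (3.67), where background was not given, so the size of these differences was not ranked.

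Among class I genes, B2m read 11.14 in parietal cells and 11.15 in the remaining cells, a difference of -0.02, and Tap1 differed by -0.08. Psmb8 was higher in parietal cells by 0.46. Psmb9 was higher by 1.05, reading 6.18 against 5.12, and was the 1 member at least 1 unit higher, as were 6.32% of all genes. The class I median was 0.22. The class I transactivator gene Nlrc5 read higher by 0.69. Heavy chain genes went both ways, with H2-T23 at -2.50, H2-Q10 at -1.88 and H2-K1 at -1.0, and H2-M3 at 0.24 and H2-Q4 at 1.21.

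General leukocyte genes moved with class II: all 5 were lower in parietal cells (median -2.81), led by Cd53 at -4.34, and 4 of them by at least 1 unit. Their list mean was 3.43 in parietal cells and 6.07 in the remaining cells. Lists of other cell types read lower too. At least 1 unit lower were all 4 pit mucous cell genes (median -1.51) and 4 of 5 mast cell genes (median -5.03). Dendritic cell genes had a median of -0.13, macrophage genes of 0.19, B cell genes of 0.04 and T cell genes of 0.21. The macrophage list mean read 3.60 in parietal cells and 3.59 in the remaining cells. The B cell mean read 3.24 and 3.18, and the T cell mean 2.83 and 2.75. The macrophage, B cell and T cell means lay below the array medians of 3.67 and 3.68. Their medians near 0 therefore cannot show that these cells were alike in both fractions. The dendritic cell mean read 3.85 in parietal cells and 4.13 in the remaining cells, above those array medians. At least 1 unit lower were 2 of 7 dendritic cell and 1 of 10 macrophage genes, against 6.46% of all genes. Ctss, the protease gene that rose with tamoxifen, differed by -2.25 between parietal and remaining cells. The part of leukocytes, or of any other cell type, in the class II difference was not tested.

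**Figure D5:**
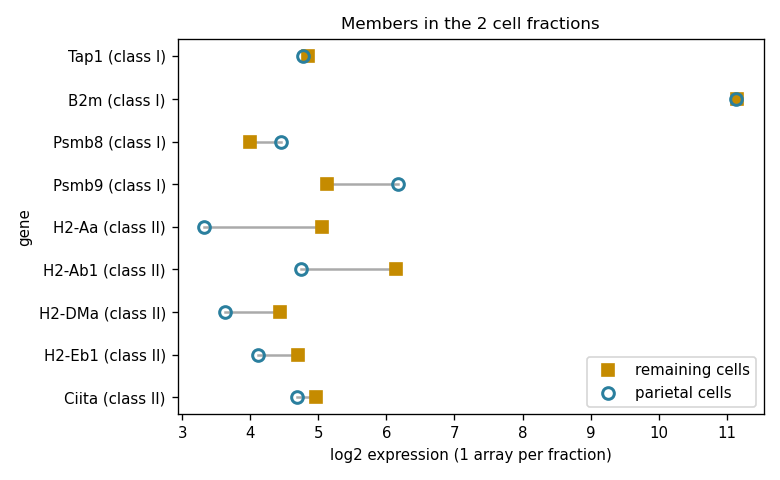
Log2 expression (horizontal) of the 9 measured genes (vertical) in the parietal-cell array (open circles) and the remaining-cell array (squares), 1 array each. The 5 class II genes lie lower in parietal cells, with differences of -1.74 to -0.27, and B2m and Tap1 nearly coincide.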

How the data were processed

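Total RNA of 11 samples was amplified (RiboAmp HS), labelled with biotin and hybridised to Affymetrix arrays, per the labels' protocols. The authors deposited log2 expression values made with RMA and Partek, per the submitters' processing notes, with versions, settings and genome build not stated there. Of 41345 probe sets, 23521 named 1 symbol, 1814 named several and 16010 were unnamed here. The brightest probe set per gene over whole-stomach arrays left 22180 genes, and dim genes were kept. Precision is limited by the few arrays, and the deposited values carry no background signal.

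A limma 3.58.1 model (R 4.3.3) of the 9 whole-stomach arrays was used (1 mean per group, shared spread, 5 residual and 3.86 prior degrees of freedom), with 7 contrasts tested, with Benjamini-Hochberg adjustment over all genes. The other 2 arrays were subtracted without a test. Tamoxifen averaged over rapamycin is the mean of its effects in the 2 arms. On simulated data of 22180 genes, that contrast recovered 88% of changes of 1 log2 unit and 99% of changes of 2. Tamoxifen against vehicle recovered 48% and 92%, and the interaction 12% and 78%.

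The members, lists and motifs were chosen with earlier results of these data known. The plan assumed 6 class II genes, and 5 had a single-symbol probe set. Of 128 entries in the other lists 119 were measured, 1 through a synonym. Named were all members, up to 4 called list genes per contrast whose groups did not overlap, or the 2 of smallest p, and the 6 genes most like each class mean. A marker list of pit mucous cells was also used: with tamoxifen averaged over rapamycin 0 of 4 pit genes were called by limma (1 at an unadjusted p under 0.05). Same-numbered arrays did not deviate together in every pair (r of -0.11 to 0.56 over 12 pairs), so numbers were not used as pairs. Alternatives were another normalization, centring, dim-gene filter, probe-set mean, variance model, fewer groups, a squamous covariate, a replicate block and each array left out.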

Additional observations from a re-analysis of the deposited data

How the results depend on the processing

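For tamoxifen averaged over rapamycin, 3 members were called as reported. The count was 1 with quantile normalization once more, 1 with the mean of probe sets, 0 with median centring, 0 with the squamous covariate and 0 with the replicate block, and between 0 and 3 with 1 array left out. The replicate block changed no other count of members called, though same numbers do not show that arrays were paired. For both drugs against rapamycin 0 were called as reported, and 1 with the dim-gene filter, with limma's trend and robust options, or with only those groups fitted (where 1102 genes were called, against 543), and 0 or 1 with 1 array left out. With the squamous covariate the class II median was 0.12 for both drugs against vehicle and 0.21 for both drugs against tamoxifen. With 1 array left out, class II medians ran from -0.21 to 0.21 for tamoxifen against vehicle, -0.37 to 0.052 for both drugs against rapamycin, -0.32 to 0.32 for both against tamoxifen and -0.23 to 0.21 for the interaction. Class I medians ran from 0.36 to 0.92 for both drugs against vehicle, 0.53 to 1.16 against rapamycin, -0.091 to 0.60 against tamoxifen and 0.027 to 0.84 for the interaction. Where a pair lost 1 array, the lone array was assumed to vary like the other groups. Over all genes, the count called moved from 381 to between 95 and 213 with 1 array left out for tamoxifen against vehicle (0 with only those groups fitted, 711 with the dim-gene filter), from 11 to between 3 and 20 for rapamycin against vehicle, from 254 to between 17 and 376 for both drugs against vehicle (10 with the squamous covariate), from 543 to between 39 and 643 for both against rapamycin, and from 1298 to between 613 and 1452 for tamoxifen averaged over rapamycin. Under the replicate block Cxcl10 and, for both drugs against rapamycin, Nlrc5 were not called. The causes of these changes were not tested. Counts for the 4 pathway and interferon lists under these settings were added after seeing the data.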
